A study of Arabidopsis thaliana with 6 samples.

Results

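The nuclear genes for proteins of the plastid ribosome were examined in Arabidopsis thaliana seedlings labelled as the mutant pp7l-1 and as wild type (Col). The 37 genes, of 33341 counted, were taken by gene code from a list of proteins of the small and large subunits and of plastid-specific proteins. They comprise 9 genes for proteins of the small subunit (PRPS), 22 for proteins of the large subunit (PRPL) and 6 for proteins first described as specific to plastid ribosomes (PSRP). Total RNA was sequenced from whole seedlings aged 4 days in both groups, 3 libraries labelled pp7l-1 and 3 of the wild type, all grown on agar with sucrose under white light in long days. No other allele or agent is named in the labels, which do not say what lesion pp7l-1 carries or whether libraries came from separate cultures, so the tests measure the spread among these 6 libraries and no more.

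The plastid ribosome is of the bacterial type and translates the messages of the plastid genome. Its rRNAs and part of its proteins are encoded in the plastid, while the remaining proteins are encoded in the nucleus, made in the cytosol and imported. Chloroplast development in seedlings depends on this ribosome, since core subunits of the photosystems, of Rubisco and of the ATP synthase are plastid-encoded, and loss of many of its proteins stops greening or embryo development. Roles of single proteins given here as bacterial are known from Escherichia coli.

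The libraries held between 11269557 and 16744328 counted reads, of which plastid genes took 60.2 ± 4.42% in libraries labelled pp7l-1 and 70.0 ± 2.35% in the wild type (SD, n = 3 each). Nuclear genes annotated as rRNA took 7.56% of replicate 1 labelled pp7l-1 and at most 0.0151% of any other library. The gene named by the mutant, PP7L, had 280, 247 and 315 counts in libraries labelled pp7l-1, against 24, 22 and 21 counts in the wild type, a log2 fold change of 3.52 ± 0.22 (SE). Where in PP7L these reads lie was not examined, and the state of its transcript was not tested. The mutant libraries are therefore named by their label, and every direction given here rests on that label. In whole seedlings, fewer cells of a type and less RNA per cell cannot be told apart.

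Fitted values were positive, that is higher in libraries labelled pp7l-1, for 31 of the 37 plastid ribosomal protein genes, and large-subunit genes made up 13 of the 18 calls. The level in CPM is a count divided by the library total after TMM scaling (trimmed mean of M values), times 1e+06. All 37 passed the filter on low counts, with totals over the 6 libraries between 2152 (PRPL28) and 15255 (PSRP6). Of these, 16 rose (43.2%), 2 fell (5.41%) and 19 did not pass the test, where calls were made at an adjusted p of 0.05 by edgeR's quasi-likelihood test over all 18115 tested genes. The background was 10.6% of tested genes called higher and 11.3% called lower. The median log2 fold change was 0.52 over the 37 genes and -0.01 over all tested genes. Among the 1434 tested genes in the same range of mean level, 18.9% were called higher and 16% lower, with a median of 0.02. Scaling by library size alone, which moved the median of all tested genes to 0.41, gave 27 of the 37 genes higher and 1 lower with a median of 0.93, beside 24.8% of tested genes higher and 4.19% lower.

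**Figure D1:**
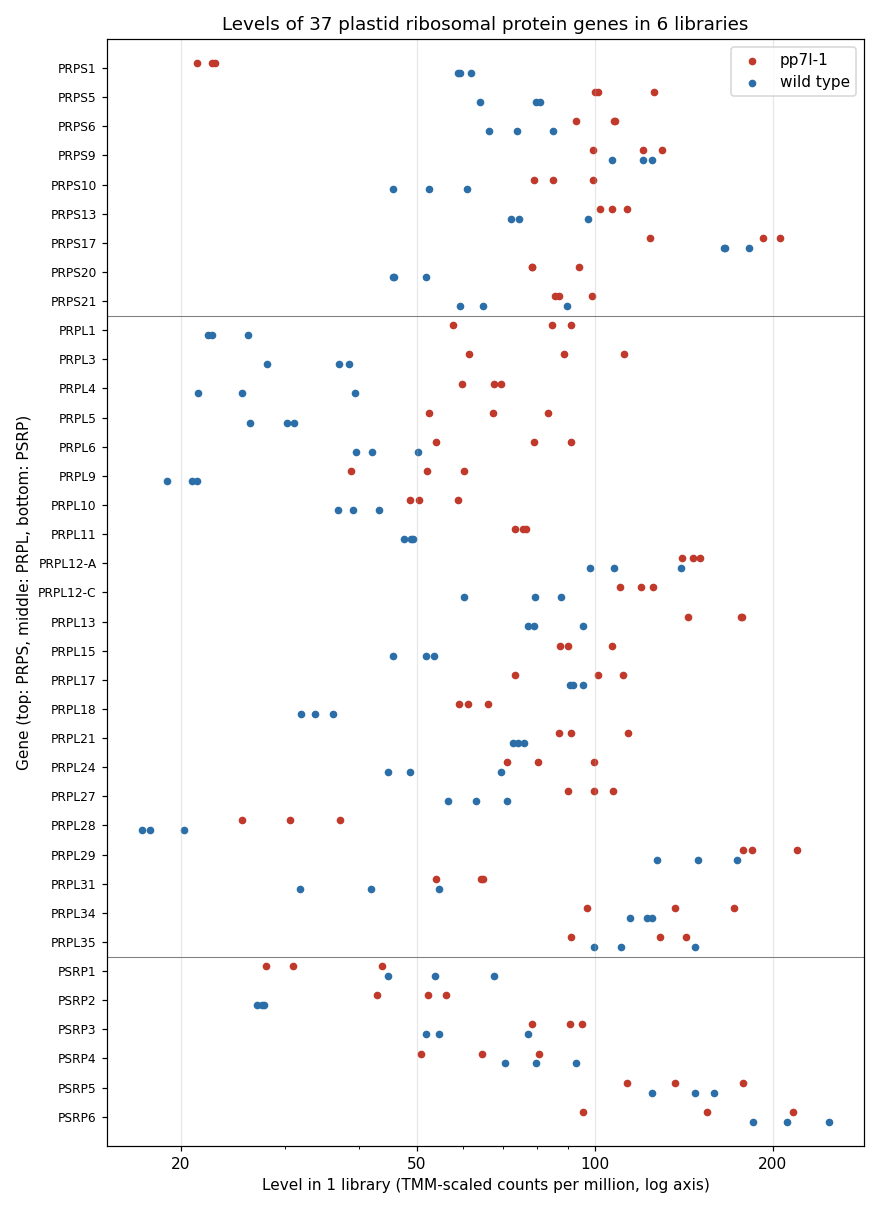
Level of each of the 37 genes in each library, as TMM-scaled CPM on a log axis, with libraries labelled pp7l-1 in red and wild-type libraries in blue. The groups do not overlap for 27 genes, and PRPS1 stands at 21.3 to 22.9 in libraries labelled pp7l-1, against 58.6 to 61.8 in the wild type.

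Levels of the libraries did not overlap between the groups for 27 of the 37 genes, beside 38.1% of all tested genes. Libraries labelled pp7l-1 stood above the wild type for 25 of the 37 genes, beside 18.7% of tested genes, and below it for 2, beside 19.5% of tested genes. Called changes of more than 2-fold numbered 5 upward and 1 downward, beside 5.21% and 6.14% of tested genes. Log2 fold changes ranged from -1.43 for PRPS1 to 1.72 for PRPL1. By class, 13 of 22 PRPL genes rose and none fell, 2 of 9 PRPS genes rose and 1 fell, and 1 of 6 PSRP genes rose and 1 fell. The median log2 fold change was 0.64 for PRPL, 0.40 for PRPS and -0.16 for PSRP genes. Every PRPL gene had a positive fitted value, the smallest being 0.02 for PRPL35, and leaving out single libraries turned that of PRPL17, PRPL34 and PRPL35.

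**Figure D2:**
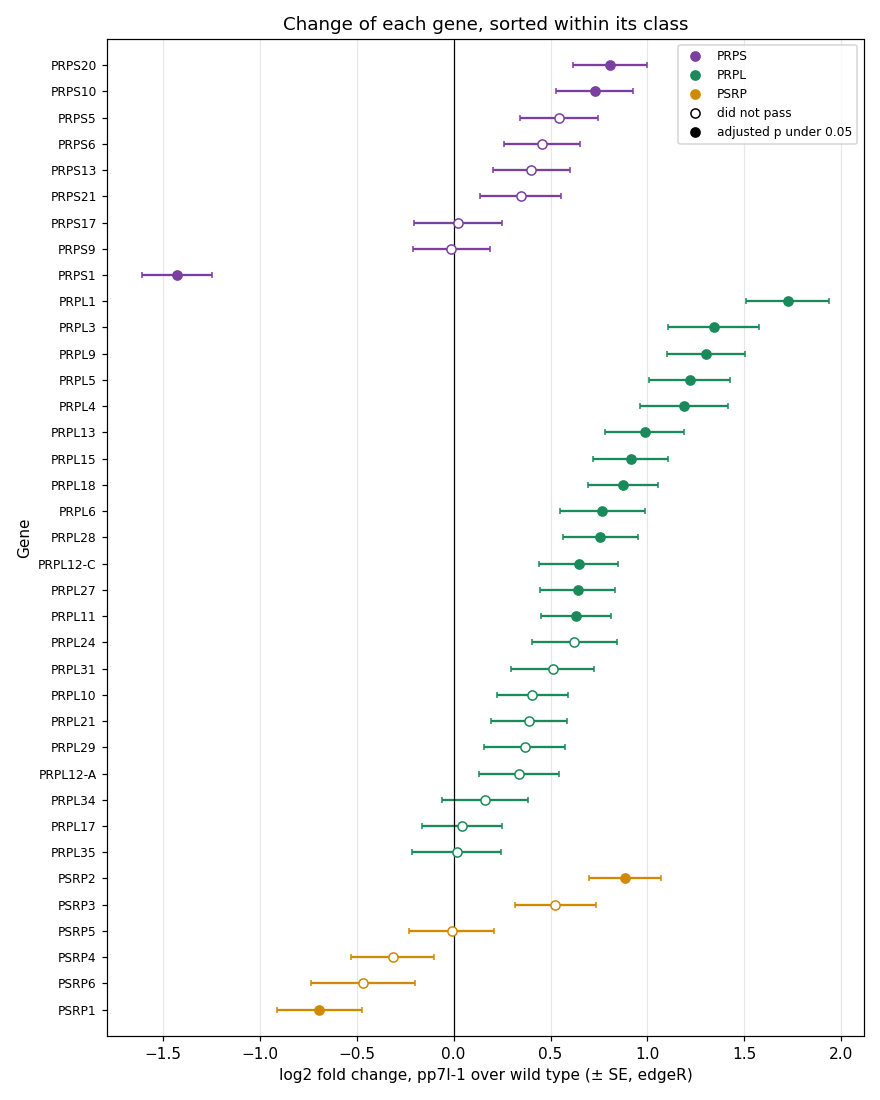
Log2 fold change of each gene, pp7l-1 over wild type, with its standard error, sorted within the classes PRPS, PRPL and PSRP and marked by its call. The 13 called PRPL genes lie between 0.63 and 1.72, and PRPS1 at -1.43 and PSRP1 at -0.69 are the genes called lower.

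In the small subunit, PRPS1 was the only gene that fell. The gene (AT5G30510, chr5:11619000-11621298 on the minus strand, TAIR10.1) encodes the homologue of the bacterial protein that holds mRNA on the small subunit, and in Arabidopsis its product is known as a partner of GUN1. PRPS1 had 22.9, 21.3 and 22.6 CPM in libraries labelled pp7l-1, against 58.6, 61.8 and 59.2 CPM in the wild type. The groups were far apart and each varied little, with means of 22.2 ± 0.836 CPM in libraries labelled pp7l-1 and 59.9 ± 1.71 CPM in the wild type (SD, n = 3 each). The log2 fold change was -1.43 ± 0.18 (edgeR adjusted p = 6.83e-05), and PRPS1 was called lower in all 14 alternative settings, with values between -1.45 and -1.01. Its share of the summed counts of the 9 PRPS genes was 2.5 ± 0.267% in libraries labelled pp7l-1 and 7.99 ± 0.659% in the wild type.

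Of the 3 genes for the body of the small subunit, PRPS20 rose (log2 fold change 0.81 ± 0.19, adjusted p = 0.00692), and PRPS5, which shapes decoding accuracy in bacteria, had 0.54 ± 0.20 (adjusted p = 0.0643). PRPS5 was called in 4 of its 14 alternatives, with adjusted p-values between 0.00894 and 0.257. PRPS17, an early rRNA-binding protein, had 193, 205 and 124 CPM in libraries labelled pp7l-1, against 166, 182 and 166 CPM in the wild type. Replicate 3 labelled pp7l-1 lay below and the other libraries with that label above all wild-type libraries. Its log2 fold change was 0.02 ± 0.23 (adjusted p = 0.96), and all of its exon bases lie in the counted gene AT1G09927, so that its count is uncertain.

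In the head of the small subunit, PRPS10, whose bacterial counterpart also acts in transcription antitermination, rose by 0.73 ± 0.20 on the log2 scale (adjusted p = 0.016). That call was lost without replicate 1 labelled pp7l-1 and without replicate 2 or replicate 3 of the wild type, with adjusted p-values over all alternatives between 0.00187 and 0.0866. PRPS13, at the contact with the large subunit in bacteria, had 0.40 ± 0.20 (adjusted p = 0.166), and PRPS9, whose tail reaches toward the tRNA sites, had -0.01 ± 0.20 (adjusted p = 0.977), a sign that turned under 4 other settings and with single libraries left out. The platform genes PRPS6 and PRPS21 had 0.46 ± 0.20 and 0.35 ± 0.21 (adjusted p = 0.108 and 0.257). In all, 6 of 9 PRPS genes did not pass the test, with values between -0.01 and 0.54, and for 3 of these 6 the libraries did not overlap.

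In the large subunit, the 6 largest rises among called genes were those of PRPL1, PRPL3, PRPL9, PRPL5, PRPL4 and PRPL13, and all 6 were called in all 14 alternative settings. PRPL1 (AT3G63490, chr3:23444203-23446355 on the plus strand) forms in bacteria the mobile stalk where spent tRNA leaves. It had 84.7, 57.7 and 91.3 CPM in libraries labelled pp7l-1, against 22.6, 26 and 22.2 CPM in the wild type. The lowest library labelled pp7l-1 lay above the highest of the wild type by more than the range of the wild type. The change was 3.30-fold (log2 1.72 ± 0.21, adjusted p = 6.02e-05).

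The genes for the rRNA-bound core of the large subunit, PRPL3, PRPL4 and PRPL13, all rose, with a median log2 fold change of 1.19. PRPL3 (AT2G43030, chr2:17894796-17895882 on the plus strand), which binds rRNA early in assembly of the bacterial subunit, had 88.9, 61.3 and 112 CPM in libraries labelled pp7l-1, against 38.5, 36.9 and 27.9 CPM in the wild type. PRPL4 (AT1G07320, chr1:2248967-2250529 on the plus strand), part of the wall of the exit tunnel in bacteria, had 69.5, 59.6 and 67.5 CPM in libraries labelled pp7l-1, against 21.4, 39.4 and 25.3 CPM in the wild type. The groups did not overlap for either gene, and the changes were 2.53-fold for PRPL3 (log2 1.34 ± 0.23, adjusted p = 0.000885) and 2.28-fold for PRPL4 (log2 1.19 ± 0.23, adjusted p = 0.00173). PRPL13 (AT1G78630, chr1:29575806-29577880 on the plus strand), another early assembly protein in bacteria, had 177, 144 and 177 CPM in libraries labelled pp7l-1, against 95.4, 78.8 and 77 CPM in the wild type. Its groups did not overlap, and its change was 1.98-fold (log2 0.98 ± 0.20, adjusted p = 0.00304).

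In the central protuberance, the knob of the large subunit built on a small rRNA, 3 of 4 genes rose. PRPL5 (AT4G01310, chr4:543911-545566 on the minus strand), which binds that rRNA in bacteria, had 67.4, 52.5 and 83.3 CPM in libraries labelled pp7l-1, against 31.1, 26.2 and 30.2 CPM in the wild type. The groups did not overlap, with a change of 2.33-fold (log2 1.22 ± 0.21, adjusted p = 0.00076). PRPL18, a neighbour of PRPL5 on that rRNA, rose by 0.87 ± 0.18 (adjusted p = 0.00318) and PRPL27, which reaches the peptidyl transferase centre, by 0.64 ± 0.19 (adjusted p = 0.0269) on the log2 scale. The call of PRPL27 was lost without replicate 1 or replicate 3 labelled pp7l-1 and without replicate 2 or replicate 3 of the wild type, with adjusted p-values over all alternatives between 0.00357 and 0.101. PRPL31, of the bridge to the small subunit, had 0.51 ± 0.21 (adjusted p = 0.102) and overlapping groups, and was called in 2 of its 14 alternatives.

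Among the stalk proteins that bind translation factors, PRPL11 rose by 0.63 ± 0.18 on the log2 scale (adjusted p = 0.0212), and PRPL10 had 0.41 ± 0.18 (adjusted p = 0.13). The call of PRPL11 was lost without replicate 1 labelled pp7l-1 and without each of the 3 wild-type libraries in turn, with adjusted p-values over all alternatives between 0.00284 and 0.0761. PRPL10 has 69.2% of its exon bases in the counted gene AT5G02095, and its count is uncertain.

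PRPL12-A and PRPL12-C encode copies of the stalk protein that touches elongation factors, and their coding sequences share long stretches in which a read cannot tell the genes apart. The coding sequences, of 576 and 564 bases, were identical at 528 of the aligned bases, or 93.6%, and had a common run of 255 bases that ends at the stop codon. The run lies at chr3:10318897-10319151 in PRPL12-A and chr3:10325214-10325468 in PRPL12-C, both on the plus strand of TAIR10.1 as annotated by RefSeq. It is printed 5′ to 3′ in capitals after the 10 bases before it in lower case, to show where counts of this pair may have been split or dropped.
PRPL12-A: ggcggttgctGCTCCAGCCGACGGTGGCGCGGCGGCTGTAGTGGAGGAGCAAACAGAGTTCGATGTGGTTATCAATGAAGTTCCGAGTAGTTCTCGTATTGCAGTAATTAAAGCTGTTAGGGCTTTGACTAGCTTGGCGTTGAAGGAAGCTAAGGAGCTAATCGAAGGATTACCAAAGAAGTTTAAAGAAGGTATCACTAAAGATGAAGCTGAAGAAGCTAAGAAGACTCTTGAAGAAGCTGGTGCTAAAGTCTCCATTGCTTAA
PRPL12-C: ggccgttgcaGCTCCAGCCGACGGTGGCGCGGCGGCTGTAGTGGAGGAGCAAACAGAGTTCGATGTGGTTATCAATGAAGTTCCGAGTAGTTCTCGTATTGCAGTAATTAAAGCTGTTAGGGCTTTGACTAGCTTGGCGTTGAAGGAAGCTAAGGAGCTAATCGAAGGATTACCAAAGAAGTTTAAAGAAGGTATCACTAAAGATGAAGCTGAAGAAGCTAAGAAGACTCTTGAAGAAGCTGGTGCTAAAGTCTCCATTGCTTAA
No base inside the run differs between the genes. PRPL12-A had 150.4, 141 and 147 CPM in libraries labelled pp7l-1, against 140.1, 108 and 98.1 CPM in the wild type. PRPL12-C had 119.8, 125 and 110.2 CPM in libraries labelled pp7l-1, against 87.6, 79.3 and 60.1 CPM in the wild type. The groups did not overlap for either copy, though by less than 1 CPM for PRPL12-A. The log2 fold change was 0.34 ± 0.21 for PRPL12-A (adjusted p = 0.262) and 0.65 ± 0.20 for PRPL12-C (adjusted p = 0.0334), and the difference between the copies was not tested. The call of PRPL12-C was lost without replicate 1 labelled pp7l-1 and without replicate 2 or replicate 3 of the wild type, with adjusted p-values over all alternatives between 0.0046 and 0.140. The log2 ratio of the counts of PRPL12-A to PRPL12-C was 0.30 ± 0.13 in libraries labelled pp7l-1 and 0.61 ± 0.14 in the wild type (SD, n = 3 each). Another copy of the family, PRPL12-B, had a count of 0 in all 6 libraries.

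None of the genes around the mouth of the exit tunnel, where the new chain leaves, passed the test. PRPL17, PRPL24 and PRPL29 had log2 fold changes of 0.04 ± 0.21, 0.62 ± 0.22 and 0.37 ± 0.21 (adjusted p = 0.912, 0.0536 and 0.235). PRPL24 lay close to the threshold and was called in 8 of its 14 alternatives, scaling by library size alone among them, with adjusted p-values between 0.0049 and 0.190.

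Of the 7 remaining large-subunit genes, PRPL9, PRPL15, PRPL6 and PRPL28 rose, and PRPL21, PRPL34 and PRPL35 did not pass the test. PRPL9 (AT3G44890, chr3:16386395-16388723 on the plus strand), an elongated protein that extends from the surface of the bacterial subunit, had 52.1, 38.7 and 60 CPM in libraries labelled pp7l-1, against 20.9, 21.3 and 18.9 CPM in the wild type. Its groups did not overlap, with a change of 2.47-fold (log2 1.3 ± 0.20, adjusted p = 0.000382). PRPL15, an assembly protein in bacteria, rose by 0.91 ± 0.19 (adjusted p = 0.0034), PRPL6, near the factor-binding site, by 0.77 ± 0.22 (adjusted p = 0.0204) and PRPL28 by 0.76 ± 0.19 (adjusted p = 0.0113) on the log2 scale. The call of PRPL6 was lost without replicate 1 or replicate 3 labelled pp7l-1 and without replicate 2 or replicate 3 of the wild type, with adjusted p-values over all alternatives between 0.00142 and 0.0817. PRPL28 shares 68% of its exon bases with the counted gene AT2G33460. PRPL21, PRPL34 and PRPL35 had 0.39 ± 0.19, 0.16 ± 0.22 and 0.02 ± 0.23 (adjusted p = 0.168, 0.651 and 0.972).

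Of the plastid-specific genes, 1 fell, 1 rose and 4 did not pass the test. PSRP1 (AT5G24490, chr5:8365601-8367460 on the plus strand) encodes a relative of the bacterial factors that silence idle ribosomes. It had 30.9, 27.8 and 43.7 CPM in libraries labelled pp7l-1, against 53.6, 44.7 and 67.5 CPM in the wild type. The groups missed each other by about 1 CPM, and PSRP1 fell by 0.69 ± 0.22 on the log2 scale (adjusted p = 0.035). Its call was lost under scaling by library size alone, where the value was -0.22 (adjusted p = 0.568), and without replicate 1 or replicate 2 labelled pp7l-1 or replicate 1 or replicate 3 of the wild type (adjusted p = 0.140, 0.107, 0.0732 and 0.178). Over all alternatives its adjusted p ranged from 0.00956 to 0.568.

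PSRP2 (AT3G52150, chr3:19342014-19343466 on the plus strand), an RNA-binding protein of the small subunit, moved the other way. It had 52.3, 42.9 and 56.1 CPM in libraries labelled pp7l-1, against 27.4, 27.6 and 26.9 CPM in the wild type. The groups did not overlap, and PSRP2 rose by 0.89 ± 0.19 on the log2 scale (adjusted p = 0.00338), a call made in all 14 alternatives. PSRP3, also of the small subunit and present in cyanobacteria too, had 95.2, 78.4 and 90.7 CPM in libraries labelled pp7l-1, against 77.2, 54.6 and 51.9 CPM in the wild type. The groups did not overlap, with a log2 fold change of 0.52 ± 0.21 (adjusted p = 0.0848). PSRP3 was called in 3 of its 14 alternatives.

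PSRP4, a small basic protein of the small subunit, had 64.4, 80.4 and 50.8 CPM in libraries labelled pp7l-1, against 79.5, 70.7 and 93.1 CPM in the wild type. PSRP5, of the large subunit, had 137, 178 and 114 CPM in libraries labelled pp7l-1, against 148, 125 and 159 CPM in the wild type. PSRP6, also of the large subunit, had 155, 216 and 95.5 CPM in libraries labelled pp7l-1, against 211, 185 and 249 CPM in the wild type. The groups overlapped for all 3 genes, and replicate 2 labelled pp7l-1 was the highest and replicate 3 the lowest of their group for each. The log2 fold changes were -0.31 ± 0.21, -0.01 ± 0.22 and -0.47 ± 0.27 (adjusted p = 0.319, 0.981 and 0.228), and scaling by library size alone turned PSRP4 to 0.09 and PSRP5 to 0.39. Leaving out replicate 2 labelled pp7l-1 gave a call for PSRP6, at -0.75 (adjusted p = 0.0409, the only one under the threshold among its 14 alternatives).

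The 2 subunits were then set side by side within each library. Summed over the 22 PRPL genes, levels were 2092, 2002 and 2074 CPM in libraries labelled pp7l-1, against 1516, 1309.9 and 1267 CPM in the wild type. Summed over the 9 PRPS genes, they were 972, 908 and 803 CPM in libraries labelled pp7l-1, against 811, 734 and 711 CPM in the wild type. The PRPL sums did not overlap between the groups, and the PRPS sums did. The ratio of the group means was 1.51 for PRPL, 1.19 for PRPS and 0.918 for PSRP genes.

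**Figure D3:**
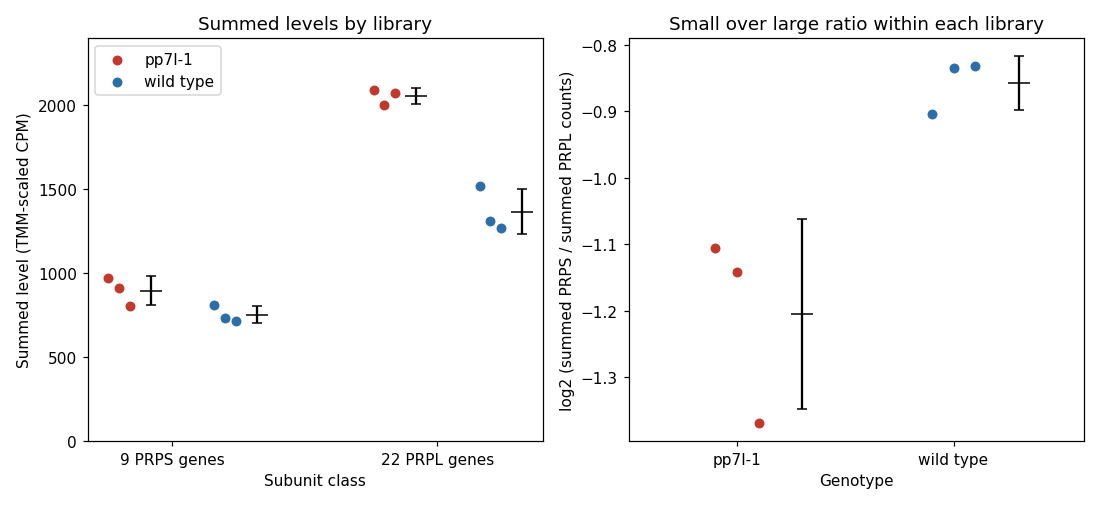
Left, summed levels in TMM-scaled CPM of the 9 PRPS and 22 PRPL genes in each library; right, the log2 ratio of the summed PRPS to the summed PRPL counts within each library, for pp7l-1 and for wild type. Points are libraries in the order of their replicate numbers and bars show mean ± SD (n = 3). The ratio averages -1.20 in libraries labelled pp7l-1 and -0.86 in the wild type.

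The log2 ratio of small-subunit to large-subunit counts, which no scaling of libraries affects, was -1.11, -1.14 and -1.37 in libraries labelled pp7l-1, against -0.90, -0.84 and -0.83 in the wild type. All 3 libraries labelled pp7l-1 lay below all wild-type libraries, with a mean of -1.20 ± 0.14 in libraries labelled pp7l-1 and -0.86 ± 0.04 in the wild type (SD, n = 3 each) and a difference of -0.35, given without a test. Without PRPS1 the difference was -0.26, and leaving out single libraries gave -0.40 to -0.27. Joining PSRP2, PSRP3 and PSRP4 to the small subunit and PSRP5 and PSRP6 to the large gave -0.20, while the mean of log2 levels, which weights genes equally, gave -0.51. As a share of all counts, the 37 genes took 0.403 ± 0.0410% of the libraries labelled pp7l-1 and 0.235 ± 0.0369% of the wild type. Of the counts of nuclear genes other than rRNA genes they took 1.1 ± 0.124% in libraries labelled pp7l-1 and 0.795 ± 0.0945% in the wild type.

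The shares and ratios of counts between genes given elsewhere are not corrected for length, except where given per exon length. For ranking, levels of genes were taken as CPM per kb of exon. On this scale the 37 genes spanned 17.5-fold in libraries labelled pp7l-1 and 15.0-fold in the wild type, with a median of 83.0 in libraries labelled pp7l-1 and 52.8 in the wild type. The same 4 genes were highest in both groups, in a different order. In libraries labelled pp7l-1 these were PRPS17 at 245 ± 61.7, PRPL29 at 232 ± 26.8, PSRP5 at 206 ± 47.1 and PSRP6 at 177 ± 68.7, and in the wild type PSRP6 at 245 ± 36.8, PRPS17 at 241 ± 13.4, PSRP5 at 207 ± 24.9 and PRPL29 at 180.4 ± 27.8. The libraries of neighbours in either order overlapped, except that PRPS17 lay above PSRP5 in all wild-type libraries. All exon bases of PRPS17 and 36.4% of those of PSRP5 lie in other counted genes, so the places of both are uncertain. PRPS1 was the lowest of the 37 in libraries labelled pp7l-1, at 14 ± 0.527, and stood at rank 29 in the wild type, at 37.7 ± 1.07. PRPL1 was at rank 31 in libraries labelled pp7l-1, at 54.0 ± 12.4, and the lowest in the wild type, at 16.4 ± 1.46, within the spread of its neighbour PRPL9 at 16.7 ± 1.04. The coefficient of variation among libraries of a group had a median of 13.4% over the 37 genes in libraries labelled pp7l-1 and 12.1% in the wild type.

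**Figure D4:**
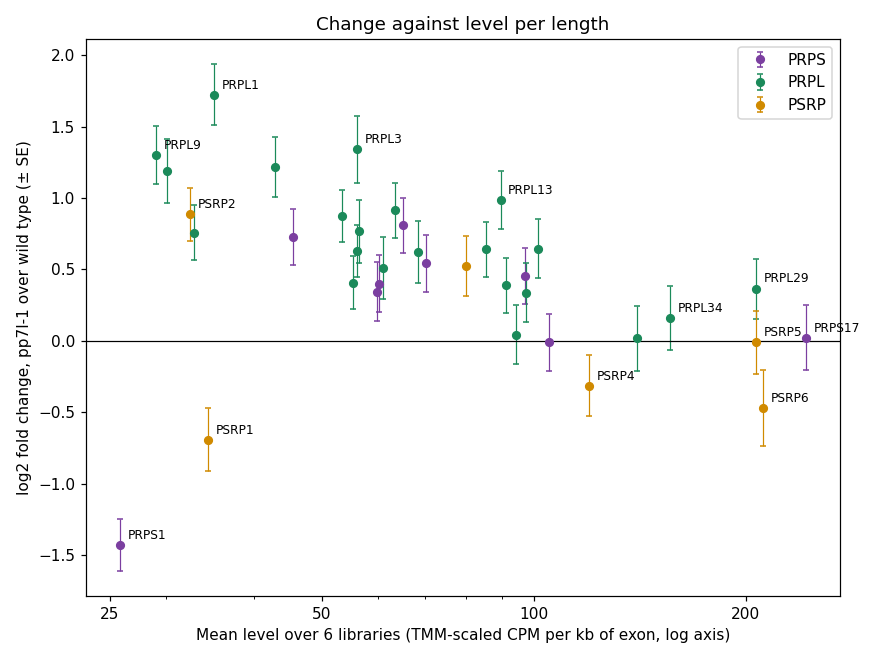
Log2 fold change, pp7l-1 over wild type, with its standard error, against the mean level of each gene over the 6 libraries in TMM-scaled CPM per kb of exon (log axis), coloured by class. Genes above a level of 100 other than PRPL12-C lie between -0.47 and 0.37, and PRPS1 and PSRP1 stand apart among the low genes.

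Across the 37 genes the log2 fold change had a Spearman correlation of -0.55 with the mean level per kb, where 17016 tested protein-coding nuclear genes gave -0.08. With coding length, which ran from 357 bases in PSRP4 to 1251 bases in PRPS1, it was 0.37 over the 37 genes and 0.60 over the 22 PRPL genes. Over the 17016 genes it was 0.23, and 0.10 over the 8152 of them within the same range of lengths. These values describe genes measured in the same 6 libraries, and both axes hold the same counts in the case of level. Single libraries of 1 group also differed with length: against the other libraries with its label, the correlation over the 37 genes was -0.50 for replicate 2 and 0.48 for replicate 3 labelled pp7l-1, and 0.40 for replicate 2 of the wild type. The part of library differences in these relations was not tested.

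The bases before the annotated starts were searched on both strands for short motifs often described in promoters of plant ribosomal and light-regulated genes. In the 250 bases upstream, TGGGCC (site II) was found in 6 of 9 PRPS, 3 of 22 PRPL and 1 of 6 PSRP genes, and in 13.7% of all 27437 protein-coding nuclear genes and 17.1% of the 17016 tested ones. TGGGCC or TGGGCT was found in 66.7% of PRPS genes, 18.2% of PRPL genes, 19.2% of all these genes and 23% of the tested ones. GATAAG (I-box) was found in 10 of the 37 genes and in 12.3% of all, CACGTG (G-box) in 3 of 37 and 6.49%, and AAACCCTA (telo box) in 4 of 37 and 4.49%. TGGGCC or TGGGCT stood upstream of 5 of the 16 genes that rose, of 7 of the 19 not called and of neither gene that fell, and of 25% of all tested protein-coding nuclear genes called higher and 14.5% of those called lower. GATAAG stood upstream of 4 of the 16 that rose, of 4 of the 19 not called and of both that fell, and of 14.4% of tested genes called higher and 15.5% of those called lower. A match is a run of letters and was not tested as a binding site.

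The 150 bases before the start are printed for both genes that fell, for 3 that rose and hold site II letters, and for PRPL3, which rose and holds none of the motifs. The windows are chr5:11621299-11621448 on the minus strand for PRPS1, chr5:8365451-8365600 on the plus strand for PSRP1, chr3:4221667-4221816 on the minus strand for PRPS10, chr1:1503854-1504003 on the minus strand for PRPL6, chr3:19341864-19342013 on the plus strand for PSRP2 and chr2:17894646-17894795 on the plus strand for PRPL3. They were read 5′ to 3′ along the gene's strand from TAIR10.1, and capitals mark the site II and I-box letters on either strand.
PRPS1: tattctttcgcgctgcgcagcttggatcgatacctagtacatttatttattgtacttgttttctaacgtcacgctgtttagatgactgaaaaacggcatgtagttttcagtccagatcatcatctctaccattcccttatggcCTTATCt
PSRP1: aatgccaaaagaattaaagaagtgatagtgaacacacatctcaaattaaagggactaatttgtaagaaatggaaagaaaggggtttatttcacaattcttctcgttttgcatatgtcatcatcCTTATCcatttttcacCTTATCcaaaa
PRPS10: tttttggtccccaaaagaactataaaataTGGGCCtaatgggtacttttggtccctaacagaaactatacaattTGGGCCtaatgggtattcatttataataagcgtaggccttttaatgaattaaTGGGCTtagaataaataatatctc
PRPL6: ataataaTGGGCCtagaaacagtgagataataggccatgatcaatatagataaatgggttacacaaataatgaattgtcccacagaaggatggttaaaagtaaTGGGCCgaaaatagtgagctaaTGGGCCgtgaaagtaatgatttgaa
PSRP2: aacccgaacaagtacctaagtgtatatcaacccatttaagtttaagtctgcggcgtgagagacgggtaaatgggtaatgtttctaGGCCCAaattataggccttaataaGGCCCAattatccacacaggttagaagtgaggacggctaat
PRPL3: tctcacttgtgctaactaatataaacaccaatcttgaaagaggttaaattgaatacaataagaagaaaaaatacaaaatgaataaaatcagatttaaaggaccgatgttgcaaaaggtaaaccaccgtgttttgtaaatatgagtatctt
In PRPS1 the I-box letters lie right before the annotated start, and PSRP1 holds them 2 times close to its start. This place is not particular to the genes that fell. The letters also lie at bases -10 to -5 in PRPS17, which was not called, and at -18 to -13 in PRPL5, which rose. In the printed windows PRPL6 holds TGGGCC 3 times and PSRP2 2 times, and PRPS10 holds TGGGCC 2 times and TGGGCT 1 time, with both strands read.

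Genes with related functions were counted in the same fit. Of 20 tested plastid-encoded ribosomal protein genes, 16 rose and none fell, at a median of 1.68 on the log2 scale, and the largest values were those of rps19 (2.43 ± 0.39) and rps3 (2.39 ± 0.38). Replicate 3 labelled pp7l-1 was the highest by far for both: rps19 had 56.1, 51.1 and 185 CPM in libraries labelled pp7l-1, against 17, 15.5 and 21.9 CPM in the wild type, and rps3 had 213, 206 and 667 CPM in libraries labelled pp7l-1, against 71.7, 57.0 and 79.1 CPM in the wild type. Without that library rps19 had 1.59 and rps3 1.62, and an entry of rpl2 was the largest (2.01). In that fit 15 of the 20 genes rose with a median of 1.14. The rpl2 gene is counted under separate codes among the 20, with wild-type counts of 7, 5 and 7 and of 5, 5 and 4. All lie under the filter's minimum of 10, so both entries passed the filter only through libraries labelled pp7l-1. A fall could not have been called for either. The summed level of the plastid-encoded ribosomal protein genes varied between libraries. It was 8689 ± 2289 CPM in libraries labelled pp7l-1 and 5815 ± 1094 CPM in the wild type (SD, n = 3 each). The groups overlapped, as the lowest library labelled pp7l-1 had 6482 CPM and the highest of the wild type 6893 CPM. The largest parts of the sum were rpl33 and rps14, neither of which was called. Of 17 nuclear genes for plastid ribosome biogenesis, 14 rose and none fell, with a median of 0.87, and 12 to 14 rose when single libraries were left out. The largest rises among them were those of SOT1, at 2.06 ± 0.22 (adjusted p = 1.29e-05), which protects the end of an rRNA precursor, and BPG2, a GTPase of rRNA maturation, at 1.79 ± 0.39 (adjusted p = 0.00402). BPG2 had low counts, at 29, 24 and 38 in libraries labelled pp7l-1, against 11, 10 and 3 in the wild type. BPG2, and CMAL of the same list with 11, 13 and 7 counts in the wild type, needed libraries labelled pp7l-1 to pass the filter. This left little room for a fall to be called for either gene. A second PSRP3 gene outside the 37, PSRP3-2, had 0.33 ± 0.32 (adjusted p = 0.5). PSRP3 held 98.0 ± 0.481% of the counts of the PSRP3 pair in libraries labelled pp7l-1 and 97.6 ± 0.953% in the wild type. Of the large-subunit protein family L19, which has no gene among the 37, the plastid genes PRPL19-1 (0.86 ± 0.19) and PRPL19-2 (0.91 ± 0.21) rose. AT4G11630, annotated only as an L19 family protein, fell (-3.52 ± 0.36), and whether its product belongs to the plastid ribosome was not examined. The level of AT4G11630 was low, with means of 0.381 CPM in libraries labelled pp7l-1 and 4.26 CPM in the wild type.

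Of 272 other tested nuclear genes with a ribosomal protein product, 11.8% rose and 2.94% fell, with a median of 0.13. The widest changes were the fall of AT4G11630 given above and the rise of AT2G07734 (2.74 ± 0.36, and 3.46 without replicate 2 of the wild type), for which near-identical copies elsewhere in the genome were not examined. Of 22 nuclear photosynthesis genes, which mark green tissue, 3 rose and none fell, with a median of 0.31, and at most 1 rose without replicate 1 labelled pp7l-1 or replicate 1 of the wild type. Their summed levels overlapped, at 36300 to 44059 CPM in libraries labelled pp7l-1, against 33090.1 to 40543 CPM in the wild type. Of 10 root markers 7 were tested, of which 2 rose and 3 fell (1 rose and 2 fell without replicate 1 of the wild type), and their summed levels were 56.1 to 80.0 CPM in libraries labelled pp7l-1, against 77.4 to 116 CPM in the wild type. CASP1 (-1.52 ± 0.22) and EXPA7 (-1.05 ± 0.24) were called lower with each library left out. SHR (1.77 ± 0.37) was called higher throughout, and SCR (1.00 ± 0.26) except without replicate 1 of the wild type. SHR had 8, 19 and 6 counts in the wild type and needed libraries labelled pp7l-1 to pass the filter. PHT1;1, not called, was the largest part of the summed levels, with means of 45.6 CPM in libraries labelled pp7l-1 and 52.6 CPM in the wild type. The fall of the root marker COBL9 (adjusted p = 0.0465) was called only when replicate 3 of the wild type was the library left out. Its adjusted p over the left-out libraries ranged from 0.0409 to 0.182. All 5 tested of 9 seed storage genes rose (CRU2 lost its call without replicate 2 labelled pp7l-1, at an adjusted p of 0.0593, and without replicate 2 of the wild type, at 0.0693, within a range of 0.00015 to 0.0693 over the left-out libraries), with summed levels of 128, 96.7 and 31.7 CPM in libraries labelled pp7l-1, against 6.44, 3.86 and 6.40 CPM in the wild type. In the wild type SESA3 had 5, 1 and 3 counts and SESA5 had 7, 6 and 5, under the filter's minimum of 10. Both passed the filter only through libraries labelled pp7l-1, so a fall could not have been called for them. CRU2, with 13, 3 and 13 counts in the wild type, also needed libraries labelled pp7l-1 to pass. The untested genes of this list did not pass the filter on low counts. None of these marker genes had a count of 0 in all libraries of a group, and the part of these cell types in the changes of the 37 genes was not tested.

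Among the 37 genes, 10 had at least 10% of their exon bases in another counted gene, of which 4 rose and 1 fell, while 12 of the remaining 27 rose and 1 fell. The called genes among the 10 were PRPL28 (68%), PRPL18 (24.1%), PRPS20 (21.6%), PSRP1 (12.2%) and PRPL1 (11.7%). Those not called were PRPS17 (100%), PRPL10 (69.2%), PSRP5 (36.4%), PRPS13 (26.5%) and PSRP3 (17.2%). Of the 18 called genes, 12 kept their call in all 14 alternatives, namely PRPS1, PRPS20, PRPL1, PRPL3, PRPL4, PRPL5, PRPL9, PRPL13, PRPL15, PRPL18, PRPL28 and PSRP2. Within the wild type, replicate 1 was the highest of its group for 23 of the 37 genes, and within libraries labelled pp7l-1, replicate 1 was the highest for 7 of 9 PRPS and replicate 3 for 11 of 22 PRPL genes.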

How the data were processed

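Total RNA of 6 seedling libraries was sequenced. The authors deposited raw counts of reads per gene, 1 table per library, with no normalization. Trimmomatic, FastQC, TopHat2 2.1.1, featureCounts and the build TAIR10 are named per the submitters' processing notes. The annotation, strand setting and treatment of shared reads are not given in the sources used here, so overlapping genes and near-identical copies are uncertain. The deposited counts were whole numbers.

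Genes were filtered with filterByExpr (minimum count 10), scaled by TMM and fitted with the quasi-likelihood test of edgeR 4.0.16 (R 4.3.3, genotype as only term), with Benjamini-Hochberg adjustment over 18115 genes. The script was tested on simulated data with changes set in randomly drawn genes. It called 64% of 2-fold rises and 47.9% of 2-fold falls, and 100% of 4-fold rises and 90.5% of 4-fold falls. CPM are TMM-scaled, and errors are SD for levels and SE for log2 fold changes. Coordinates and sequences are those of RefSeq's TAIR10.1. The members and lists were chosen with earlier results of these data known, and the grouping by role, the per-kb sum, the mean of log2 levels, the split by shared exon bases and the left-out libraries for other lists after values were seen. Values per library are given for the 6 largest rises among called genes, all falls, the PSRP genes, the PRPL12 pair and the highest and lowest genes per exon length by mean over all libraries. Alternatives were 4 scalings, 2 filters, DESeq2 1.42.0, the replicate number as a block and each library left out.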

Additional observations from a re-analysis of the deposited data

How the results depend on the processing

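The number of the 37 genes called higher was 16 as reported, 27 with library size alone, and 16 to 18 with the other scalings, filters, DESeq2 and the replicate block, while leaving out single libraries gave 11 to 19. The number called lower was 2, but 1 with library size alone and 1 among genes with under 10% shared exon bases, and leaving out single libraries gave 1 to 2. The difference between the subunits moved to -0.20 with the PSRP genes joined and to -0.51 as the mean of log2 levels, with -0.32 per exon length and -0.40 to -0.27 when single libraries were left out.

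Of 518 values of single genes under the alternatives, 444 kept direction and call, 23 lost and 25 gained a call, and 26 changed sign. Apart from left-out libraries, PRPS9 turned to 0.026 (upper quartile), 0.39 (library size alone), 0.0024 (nuclear genes alone) and 0.011 (no filter), and PSRP5 to 0.027, 0.39, 0.0018 and 0.013 under the same settings. PSRP4 turned to 0.089 with library size alone and PRPS17 to -0.0092 with the replicate block. With single libraries left out, values ranged from -0.092 to 0.11 for PRPS9, -0.088 to 0.24 for PRPS17, -0.062 to 0.22 for PRPL17, -0.022 to 0.37 for PRPL34, -0.10 to 0.21 for PRPL35 and -0.17 to 0.15 for PSRP5. The causes were not tested.

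Libraries with the same replicate number correlated in their deviations by 0.10, -0.03 and 0.05, so the numbers were not taken as pairs. The fit with the replicate block called 17 of the 37 genes higher and 2 lower, and 1987 genes higher and 2166 lower in all. No depth limit bears on the 37 genes beyond the spread of libraries, since each had at least 185 counts in every library.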
